A study of Cavia porcellus with 8 samples.

Results

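The comparison described here set the cochleae of 3 guinea pigs that carried a dexamethasone-eluting electrode for 7 days (DEX) against the cochleae of 2 guinea pigs that had no surgery (CNT), so that 5 of the 8 arrays of the series were compared and the remaining 3 arrays, from animals with a normal electrode (NOR), entered the model as a group of their own. Samples were assigned by the treatment named in their titles. All animals were male Hartley guinea pigs, given as 8 weeks old in the sample labels and as 7 weeks old in the treatment protocol. DEX animals received a silicone dummy electrode, loaded with dexamethasone, through a small hole in the left cochlea near the round window. CNT animals received neither an operation nor an electrode nor dexamethasone. A sham operation is not among the groups, so that within this comparison the effects of the surgery, the silicone body and dexamethasone cannot be told apart. RNA was taken from the whole dissected cochlea, with 1 array per animal, and the replicates were separate animals.

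A cochlear implant electrode lies in the scala tympani, where its insertion can injure the lining of the duct and is followed by inflammation and by the growth of fibrous tissue around the foreign body. Dexamethasone is a synthetic glucocorticoid that enters cells, binds the glucocorticoid receptor and lowers the transcription of many inflammatory genes. It raises the transcription of other genes, some of them involved in metabolism and in the resolution of inflammation. Local release from the electrode is one way to deliver the drug to the inner ear over a long time.

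The array held 13269 features, which are transcripts known by their GenBank accessions, and the value of a feature is a signal intensity. Accessions that begin with EL or EB made up 12497 of the features, and the remaining 772 features included the 59 that belong to the genes named by the study. Signals are given here after quantile normalization of all 8 arrays, and log2 fold changes are DEX minus CNT. A feature was called when its limma adjusted p was under 0.05 over all features and its change was 2-fold or more. A property of the arrays bears on every value: any pair of arrays within the set NOR 1, NOR 2, DEX 1 and DEX 2 (set A), or within the set NOR 3, DEX 3, CNT 1 and CNT 2 (set B), shared between 246 and 384 distinct signal values, against between 30 and 52 for a pair across the sets. A shared value is exactly equal but need not belong to the same feature in both arrays. Neither the labels nor the methods name such sets, and they were found from the values. Both controls lie in set B together with DEX 3 alone, and when the set was added to the model, 1617 features (12.2%) differed between the sets at a limma adjusted p under 0.05. Values of DEX 3 against CNT are therefore given separately below.

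Over all features, 127 were called higher in DEX than in CNT (0.957%) and 109 were called lower (0.821%). Another scaling moved this balance, since the signals as deposited gave 173 higher and 57 lower, and median centring gave 89 higher and 126 lower. The median log2 difference over all features was 0.01 after quantile normalization, 0.14 in the signals as deposited and -0.09 after median centring, so directions are read relative to these shifts. Of the 127 features called higher, 107 were also called higher in NOR against the same CNT animals (1.34% of all features). Of the 109 called lower, 92 were also called lower there (1.27% of all features). Both comparisons use the same controls, so this overlap is not independent evidence. Most called changes were of moderate size. A change of 4-fold or more was found in 36 of the features called higher and in 9 of those called lower, and a change of 8-fold or more in 7 and 1. The features called higher were mostly of intermediate signal, with 3, 63, 49 and 12 from the dimmest to the brightest quartile of mean signal. For the features called lower the same counts were 3, 77, 28 and 1, so that 1 of them was in the brightest quartile.

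**Figure D1:**
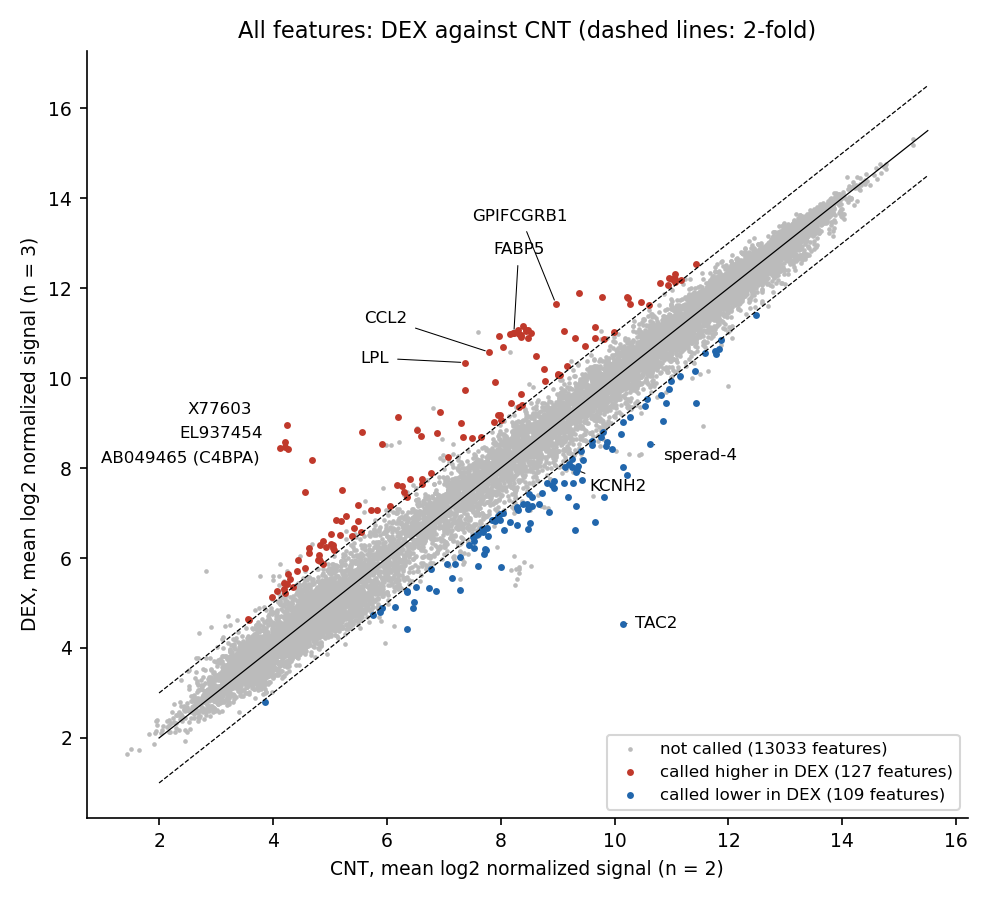
Mean log2 normalized signal of each feature in DEX (vertical axis, n = 3) against CNT (horizontal axis, n = 2), with features called higher in red, called lower in blue and all others in grey; the solid line marks equality and the dashed lines a 2-fold difference. The 127 features called higher include FABP5, CCL2 and GPIFCGRB1 at middle signal and X77603, EL937454 and AB049465 (C4BPA) at low CNT signal, and TAC2 stands far below the other features called lower.

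Individual animals were compared with the mean of both controls as well. DEX 1 had 254 features at 2-fold or more above that mean and 284 at 2-fold or more below it. In DEX 2 these numbers were 365 and 308, and in DEX 3 they were 178 and 329. Of the 127 features called higher, 118, 116 and 98 reached 2-fold in DEX 1, 2 and 3, and of the 109 called lower, 101, 94 and 89 did so. Between the controls the differences were smaller, with 52 features at 2-fold or more higher in CNT 1 than in CNT 2 and 23 lower. The SD of the log2 differences over all features was 0.28 between the controls, against 0.49, 0.52 and 0.48 for DEX 1, 2 and 3 against the mean of the controls.

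The calls were divided by kind of accession. Among the 772 features whose accession does not begin with EL or EB, 29 were called higher (3.76%) and 11 lower (1.42%), whereas among the 12497 others 98 were called higher and 98 lower (0.784% each). Of the 29 features called higher, 22 belong to the genes listed by the study. Outside these genes, 7 of 713 features were called higher (0.982%) and 6 were called lower (0.842%), close to the shares over all features. The animals of the groups did not overlap in 25.4% of all features in the direction of higher DEX signal and in 22.5% in the direction of lower DEX signal, so that a lack of overlap is common in groups of this size.

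The study lists 40 genes as raised and 9 genes as lowered after insertion of a normal electrode. These lists were chosen on the NOR animals against the same CNT animals, so the counts below describe the genes in DEX and are not independent evidence of a direction. All 40 genes of the raised list had a higher mean in DEX, and 18 were called (45.0%, against 0.957% of all features). The increase was 2-fold or more in 24 of the genes, against 1.50% of all features. The animals did not overlap in 38 of the 40 (25.4% of all features did so in this direction), and the median log2 fold change was 1.11 over the list and 0.01 over all features. All 9 genes of the lowered list had a lower mean in DEX, 5 were called (55.6%, against 0.821%) and the same 5 were lower by 2-fold or more (against 1.55%), and the median log2 fold change was -1.39. The normal electrode gave 21 called genes of the 40 and 8 of the 9 against the same controls (1.34% and 1.27% of all features), with medians of 1.25 and -1.39. In whole cochlea RNA, more cells of a type and more RNA per cell cannot be told apart. The summed signal of 8 listed entries that mark monocytes and macrophages (CD18, C3AR1, CYBA, GPR34, MHC class II, GPIFCGRB1, GPIFCGRB2 and GPIFCGRB3) ranged from 14156 to 17666 in DEX and from 5907 to 6188 in CNT. This is a sum of linear signals, in which bright entries weigh most. All 8 entries were higher in DEX, as was the whole raised list from which they were taken, and 5 were called (0.957% of all features). The 3 GPIFCGRB entries, all called, are forms of 1 receptor, and without them the sum of the remaining 5 genes ranged from 7912 to 8545 in DEX and from 4724 to 4990.0 in CNT, with 2 genes called. That of the CD8 genes, which mark T cells, ranged from 194 to 257 in DEX and from 92.4 to 117 in CNT. The part of such cells in the results was not tested. No feature could be matched to the markers of hair cells or of the supporting cells, so the tissue label could not be checked in this way.

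**Figure D2:**
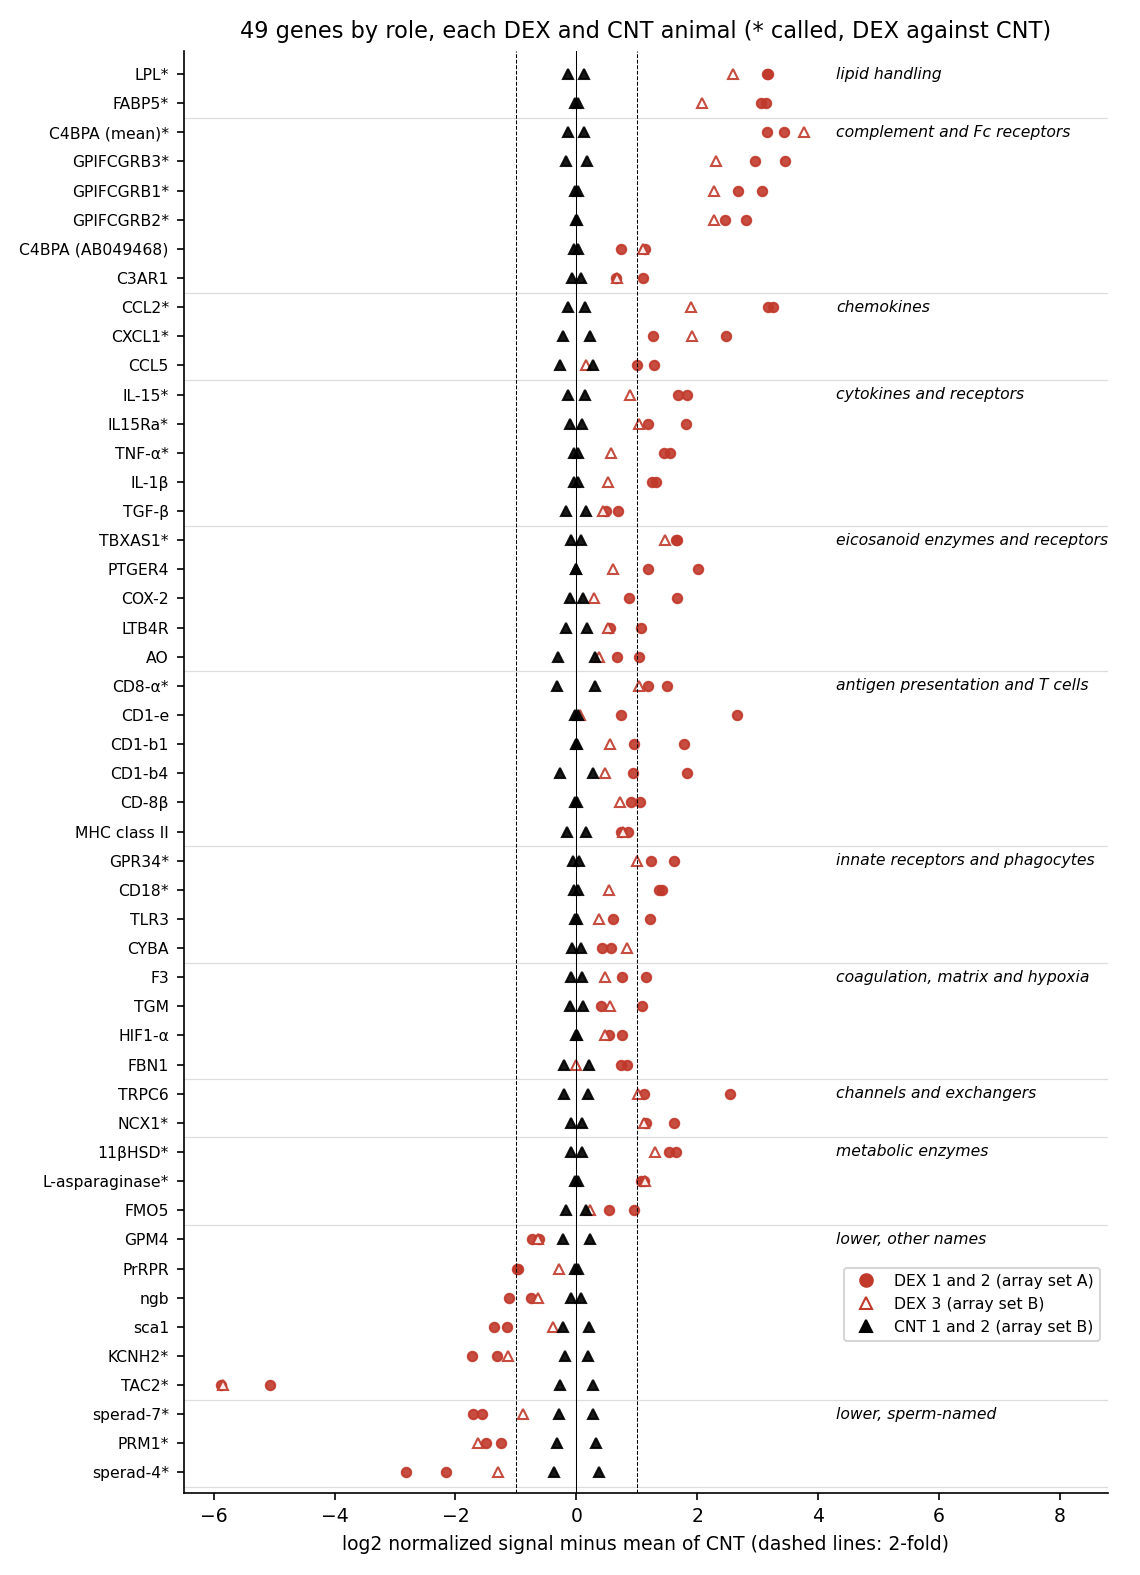
Log2 normalized signal of each DEX and CNT animal minus the mean of CNT for the 49 listed genes, grouped by role; red circles are DEX 1 and 2 (array set A), open red triangles are DEX 3 and black triangles are the controls (array set B), and an asterisk marks a called gene. All DEX animals lie above both controls in 38 of the 40 genes of the raised list and below both in the 9 genes of the lowered list, and DEX 3 lies closer to the controls than DEX 1 and DEX 2 in most genes of the raised list.

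LPL and FABP5, the genes of the raised list with a role in lipid handling, were both called (0.957% of all features were called higher). LPL encodes lipoprotein lipase, which releases fatty acids from circulating triglycerides and is also made by macrophages. Its signal was 1475, 1492 and 1000.1 in DEX 1, 2 and 3 and 181 and 151 in CNT 1 and 2. No DEX animal came near the controls, and the mean was 7.86-fold higher in DEX (log2 fold change 2.97, SE 0.26, limma adjusted p = 0.00626). FABP5 encodes the epidermal fatty acid binding protein, a carrier of fatty acids inside cells. Its signal was 2642, 2511 and 1274 in DEX 1, 2 and 3 and 296 and 305 in CNT 1 and 2. The change was 6.78-fold (log2 fold change 2.76, SE 0.31, limma adjusted p = 0.00798), with DEX 3 at a lower level than DEX 1 and DEX 2. The corresponding log2 fold changes of NOR against CNT were 3.91 for LPL and 3.1 for FABP5.

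Among complement and Fc receptor entries 4 of 6 were called (0.957% of all features), 3 of them forms of 1 receptor. C4BPA encodes the alpha chain of C4b-binding protein, an inhibitor of the classical and lectin pathways of complement, and 4 features carry this name. AB049465 had signals of 358, 310.1 and 509 in DEX 1, 2 and 3 and 19.9 and 17.1 in CNT 1 and 2. This was a 20.8-fold difference (log2 fold change 4.38, SE 0.43, limma adjusted p = 0.00709), and here DEX 3 was the highest animal. AB049466 and AB049467 gave log2 fold changes of 4.17 and 4.26. The features of 1 gene are not independent, and the fourth one, AB049468, gave a smaller value. It was among the dimmest features, with a mean signal above that of only 2.86% of all features. Its signals were 12.7, 9.62 and 12.3 in DEX 1, 2 and 3 and 5.88 and 5.64 in CNT 1 and 2, and the difference was just under 2-fold and not called (log2 fold change 0.99, SE 0.19, limma adjusted p = 0.0332). The 4 features together are 1 entry of the list, beside AB049468 on its own, and their geometric mean rose 10.9-fold (log2 fold change 3.45, SE 0.35, limma adjusted p = 0.00743). With the arithmetic mean of the linear signals, the log2 ratio of DEX to CNT was 4.17.

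GPIFCGRB1, GPIFCGRB2 and GPIFCGRB3 are entries for the guinea pig Fc-gamma-1/gamma-2 receptor, through which phagocytes bind IgG. The signal of GPIFCGRB1 was 3209, 4221 and 2438 in DEX 1, 2 and 3 and 495 and 508 in CNT 1 and 2. The lowest DEX animal was several times as bright as the controls, which lay close together, and the difference was 6.40-fold (log2 fold change 2.68, SE 0.34, limma adjusted p = 0.0103). GPIFCGRB2 rose by a log2 fold change of 2.51 and GPIFCGRB3 by 2.90, and since they are forms of 1 receptor the arrays may not separate them. The receptor of the complement fragment C3a, C3AR1, did not pass the test. Its signal was 1569, 2129 and 1584 in DEX 1, 2 and 3 and 940.2 and 1042 in CNT 1 and 2 (log2 fold change 0.82, SE 0.26, limma adjusted p = 0.104).

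Of 3 chemokine genes 2 were called, against 0.957% of all features. CCL2, or monocyte chemoattractant protein 1, draws monocytes into tissue. Its signal was 2004, 2136 and 832 in DEX 1, 2 and 3 and 246 and 201 in CNT 1 and 2. DEX 3 had less than either of the other DEX animals, and the mean difference was 6.86-fold (log2 fold change 2.78, SE 0.42, limma adjusted p = 0.0191). CXCL1, or GRO, attracts neutrophils, and its signal was 284, 656 and 447 in DEX 1, 2 and 3 and 102 and 138 in CNT 1 and 2. The DEX animals differed among themselves by a similar factor as DEX 1 differed from the controls, and the change was 3.69-fold (log2 fold change 1.88, SE 0.32, limma adjusted p = 0.0249). CCL5, or RANTES, attracts T cells and monocytes, and its signal was 127, 105 and 58.6 in DEX 1, 2 and 3 and 63.1 and 43.3 in CNT 1 and 2. DEX 3 lay between the controls, and the change did not pass the test (log2 fold change 0.82, SE 0.45, limma adjusted p = 0.302).

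**Figure D3:**
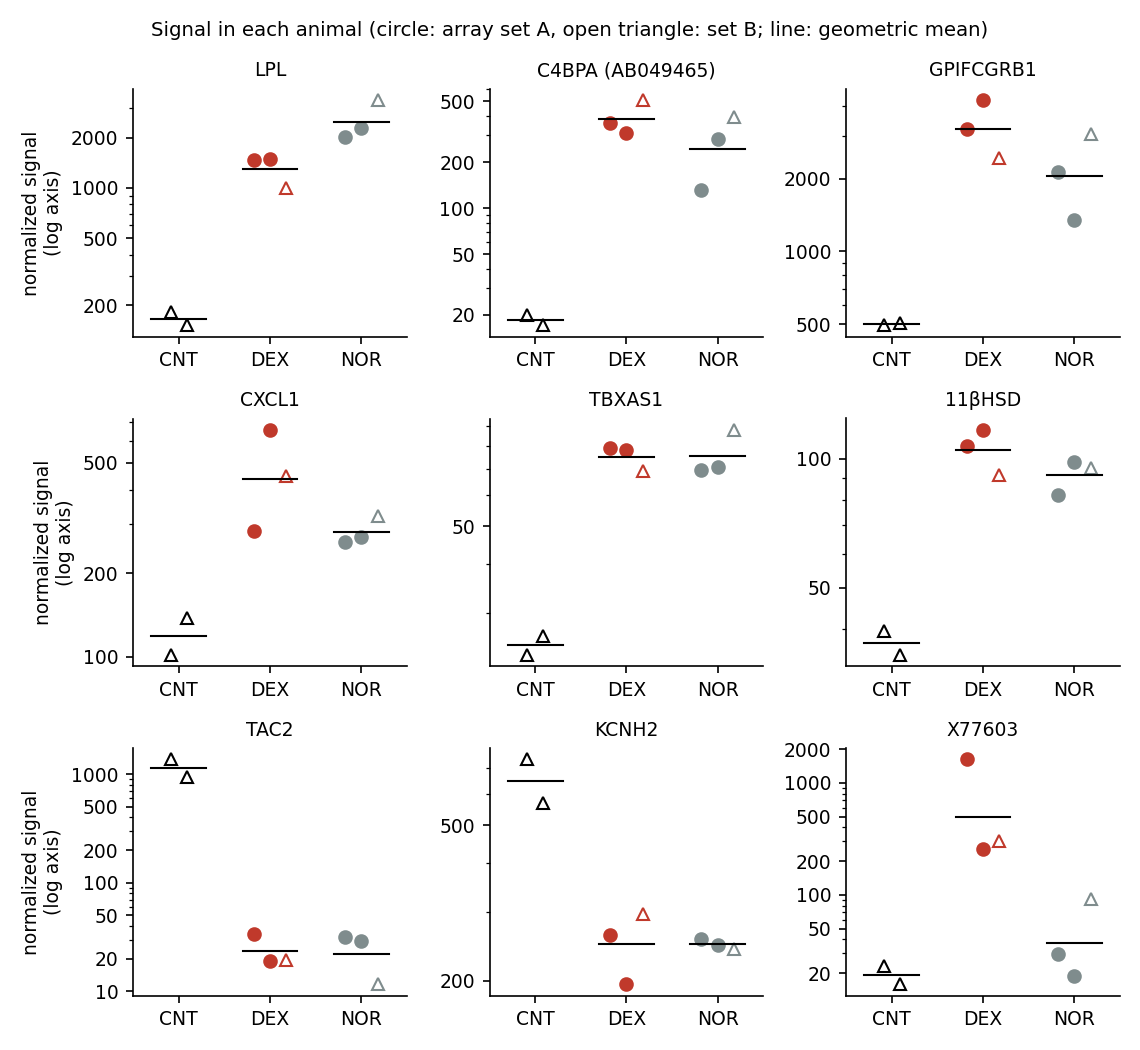
Normalized signal (log axis) of 8 listed genes and of the feature X77603 in each animal of CNT (n = 2), DEX (n = 3) and NOR (n = 3); circles are arrays of set A, open triangles arrays of set B and lines the geometric means. LPL lies between 1000.1 and 1492 in DEX and TAC2 between 19.2 and 33.6, apart from the controls in both, and X77603 is bright in DEX and dim in CNT and NOR.

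Cytokines and their receptors were called in 3 of 5 genes, against 0.957% of all features, and in 1 of 5, IL15Ra, once the array set was modelled (1.38% of all features). IL-15 is a growth factor of T cells and natural killer cells. Its signal was 79.6, 88.3 and 46.0 in DEX 1, 2 and 3 and 22.5 and 27.5 in CNT 1 and 2. It rose 2.76-fold (log2 fold change 1.46, SE 0.31, limma adjusted p = 0.0421), and the call was lost in the signals as deposited (limma adjusted p = 0.0515) and after cyclic loess (limma adjusted p = 0.0638). IL15Ra, the receptor chain that presents IL-15 to neighbouring cells, had a signal of 195, 298 and 175 in DEX 1, 2 and 3 and 79.4 and 91.4 in CNT 1 and 2. The animals did not overlap and the difference was 2.54-fold (log2 fold change 1.35, SE 0.23, limma adjusted p = 0.0249). TNF-α, an early cytokine of inflammation, had a signal of 49.2, 45.7 and 25 in DEX 1, 2 and 3 and 16.4 and 17.1 in CNT 1 and 2. It passed the test by a narrow margin (log2 fold change 1.19, SE 0.27, limma adjusted p = 0.0482) and did not pass after median centring (limma adjusted p = 0.051) or in the fit of only DEX and CNT arrays (limma adjusted p = 0.0702). IL-1β, another such cytokine, had a signal of 262, 250.1 and 150.3 in DEX 1, 2 and 3 and 103 and 107 in CNT 1 and 2. DEX 3 stood nearer to the controls than to the other DEX animals, and the gene did not pass the test (log2 fold change 1.03, SE 0.33, limma adjusted p = 0.104). TGF-β, a growth factor of fibrosis and of immune regulation, had a log2 fold change of 0.54 and did not pass the test (limma adjusted p = 0.152).

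Genes of eicosanoid synthesis and signalling, which make or sense prostaglandins, thromboxane and leukotrienes, included 1 called gene of 5 (0.957% of all features). TBXAS1, the thromboxane synthase of platelets and macrophages, had a signal of 78.9, 78.0 and 69.0 in DEX 1, 2 and 3 and 23.5 and 26.3 in CNT 1 and 2. The DEX animals were nearly alike, and the gene rose 3.02-fold (log2 fold change 1.60, SE 0.14, limma adjusted p = 0.00626). COX-2, the inducible cyclooxygenase and a gene known to be repressed by glucocorticoids, had a signal of 13.0, 22.6 and 8.73 in DEX 1, 2 and 3 and 7.66 and 6.57 in CNT 1 and 2. Its change did not pass the test (log2 fold change 0.95, SE 0.35, limma adjusted p = 0.148). The prostaglandin E2 receptor PTGER4 had a log2 fold change of 1.27 (limma adjusted p = 0.0714). For LTB4R, the leukotriene B4 receptor of neutrophils, the value was 0.72 (limma adjusted p = 0.299). AO, an enzyme that inactivates leukotriene B4 and prostaglandins, had a value of 0.70 (limma adjusted p = 0.127).

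Of 6 genes of antigen presentation and T cells, 1 was called and 3 had a limma adjusted p under 0.05, against 2.47% of all features that were higher in DEX at this threshold without a fold minimum. CD8-α, a co-receptor chain of cytotoxic T cells, had a signal of 161, 129.9 and 117 in DEX 1, 2 and 3 and 45.7 and 70.9 in CNT 1 and 2. It rose 2.37-fold (log2 fold change 1.25, SE 0.21, limma adjusted p = 0.0248). CD-8β, the partner chain, changed by less than 2-fold (log2 fold change 0.90, SE 0.14, limma adjusted p = 0.0200). The MHC class II gene, whose product presents peptides to helper T cells, also changed by less than 2-fold (log2 fold change 0.80, SE 0.16, limma adjusted p = 0.0371). CD1-e, of the family that handles lipid antigens, had a signal of 98.0, 26.0 and 16.3 in DEX 1, 2 and 3 and 15.3 and 15.9 in CNT 1 and 2. The high mean of DEX came from DEX 1, DEX 3 was just above the controls, and the change did not pass the test (log2 fold change 1.15, SE 0.63, limma adjusted p = 0.302). CD1-b1 and CD1-b4, also lipid antigen presenting molecules, did not pass it either, with log2 fold changes of 1.09 and 1.08 and limma adjusted p-values of 0.109 and 0.116.

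Innate receptor and phagocyte genes were called in 2 of 4 cases, against 0.957% of all features. GPR34 is a receptor of microglia and other macrophages. Its signal was 473, 616 and 406 in DEX 1, 2 and 3 and 194 and 209 in CNT 1 and 2. It rose 2.43-fold (log2 fold change 1.28, SE 0.23, limma adjusted p = 0.0294). The entry CD18, described as leukocyte adhesion glycoprotein Mo1-alpha, belongs to the integrin by which myeloid cells attach and migrate. Its signal was 294, 284 and 160.0 in DEX 1, 2 and 3 and 108 and 113 in CNT 1 and 2. The call was marginal (log2 fold change 1.11, SE 0.25, limma adjusted p = 0.0499) and was lost in the deposited signals, after median centring, after cyclic loess and in the fit of only DEX and CNT arrays, with limma adjusted p-values between 0.0529 and 0.0703. CYBA, a subunit of the oxidase with which phagocytes make superoxide, had a log2 fold change of 0.61 and did not pass the test (limma adjusted p = 0.192). TLR3, a receptor of double-stranded RNA, had a value of 0.73 (limma adjusted p = 0.101).

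None of the 4 genes of coagulation, matrix and hypoxia was called (0.957% of all features), with log2 fold changes between 0.53 and 0.80. F3, the tissue factor that starts coagulation, had a signal of 554, 424 and 348 in DEX 1, 2 and 3 and 265 and 235 in CNT 1 and 2. It lay above the controls in each DEX animal but did not pass the test (log2 fold change 0.80, SE 0.19, limma adjusted p = 0.0574). TGM, a transglutaminase that cross-links proteins, had a log2 fold change of 0.68 and HIF1-α, the oxygen-regulated transcription factor, one of 0.59, with limma adjusted p-values of 0.225 and 0.143. FBN1 encodes fibrillin 1, a protein of extracellular microfibrils. Its signal was 2224, 2075 and 1226 in DEX 1, 2 and 3 and 1072 and 1427 in CNT 1 and 2. DEX 3 lay between the controls, so that the difference in the mean came from DEX 1 and DEX 2 (log2 fold change 0.53, SE 0.28, limma adjusted p = 0.284).

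The raised list holds 2 genes of channels and exchangers, of which 1 was called (0.957% of all features). In both genes each DEX animal was above the controls, as in 25.4% of all features. NCX1, a sodium/calcium exchanger, had a signal of 47.7, 65.8 and 46.6 in DEX 1, 2 and 3 and 20.2 and 22.7 in CNT 1 and 2. It rose 2.46-fold (log2 fold change 1.30, SE 0.26, limma adjusted p = 0.0351), and the call was lost after median centring (0.98, limma adjusted p = 0.0651) and cyclic loess (limma adjusted p = 0.0560). TRPC6 is a calcium-permeable cation channel, represented by the geometric mean of 4 features. Its signal was 95.3, 35.7 and 33.1 in DEX 1, 2 and 3 and 18.7 and 14.3 in CNT 1 and 2. DEX 1 stood far above the other DEX animals, and the difference of 2.95-fold did not pass the test (log2 fold change 1.56, SE 0.76, limma adjusted p = 0.246). The log2 fold change of NOR against CNT for TRPC6 was 2.69.

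Of 3 metabolic enzymes 2 were called (0.957% of all features). 11βHSD, named in the study as the type 1 enzyme of 11-beta-hydroxysteroid dehydrogenase, regenerates active glucocorticoid from its inactive form inside cells. Its signal, the geometric mean of a pair of features, was 107, 117 and 91.8 in DEX 1, 2 and 3 and 39.6 and 34.9 in CNT 1 and 2. The DEX animals lay close together and well above the controls, with a 2.82-fold difference (log2 fold change 1.50, SE 0.15, limma adjusted p = 0.00669). L-asparaginase hydrolyses asparagine. Its signal was 5791, 5999.5 and 6125 in DEX 1, 2 and 3 and 2718 and 2828 in CNT 1 and 2. The replicates of both groups were tight, and the change was 2.15-fold (log2 fold change 1.11, SE 0.18, limma adjusted p = 0.0224). FMO5, a flavin-containing monooxygenase, had a log2 fold change of 0.57 (limma adjusted p = 0.158).

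Of the lowered list, 6 genes encode neuropeptide, receptor, channel and other proteins without a name from sperm biology, and 2 of them were called (0.821% of all features were called lower). TAC2, described as beta preprotachykinin I, is a precursor of tachykinin neuropeptides. Its signal was 33.6, 19.2 and 19.6 in DEX 1, 2 and 3 and 1367 and 937 in CNT 1 and 2. With 48.5-fold lower signal in DEX it was the largest decrease of all features (log2 fold change -5.60, SE 0.45, limma adjusted p = 0.00626). The log2 fold change of NOR against CNT for TAC2 was -5.68. KCNH2 encodes a voltage-gated potassium channel. Its signal was 261, 196 and 297 in DEX 1, 2 and 3 and 739 and 569 in CNT 1 and 2. The groups were well separated, and the decrease was 2.62-fold (log2 fold change -1.39, SE 0.19, limma adjusted p = 0.0146). Neuroglobin (ngb), an oxygen-binding protein of neurons, fell by less than 2-fold (log2 fold change -0.83, SE 0.16, limma adjusted p = 0.0322). Of all features 2.43% were lower in DEX at this threshold without a fold minimum. The spinocerebellar ataxia type 1 gene sca1 had a log2 fold change of -0.97, the prolactin releasing peptide receptor-like gene PrRPR one of -0.74, and GPM4, the muscarinic receptor 4, one of -0.66. Their limma adjusted p-values were 0.0862, 0.106 and 0.239.

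All 3 lowered genes with names from sperm biology were called, against 0.821% of all features. PRM1 is protamine 1, which packs DNA in sperm heads, and its signal was 31.7, 37.8 and 29.0 in DEX 1, 2 and 3 and 71.4 and 112 in CNT 1 and 2. The decrease was 2.74-fold (log2 fold change -1.46, SE 0.28, limma adjusted p = 0.0320). The signal of sperad-4 was 354, 225 and 646 in DEX 1, 2 and 3 and 1222 and 2050.4 in CNT 1 and 2. The controls differed between themselves, yet both were above every DEX animal (log2 fold change -2.09, SE 0.45, limma adjusted p = 0.0422). The call was lost after median centring (limma adjusted p = 0.0529) and in the fit of only DEX and CNT arrays (limma adjusted p = 0.0550), in which that of sperad-7 was lost too (limma adjusted p = 0.0523). The signal of sperad-7 was 121, 109 and 193 in DEX 1, 2 and 3 and 294 and 433 in CNT 1 and 2 (log2 fold change -1.39, SE 0.26, limma adjusted p = 0.0314).

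Outside the listed genes, the called features with the largest changes were taken by rule among those whose animals did not overlap. The files pair none of them with a gene name. X77603 showed the largest increase, with signals of 1623, 257 and 299.6 in DEX 1, 2 and 3 and 23.0 and 15.8 in CNT 1 and 2. DEX 1 was much brighter than DEX 2 and DEX 3, and every DEX animal was above the controls by a wide margin (log2 fold change 4.71, SE 0.88, limma adjusted p = 0.0314). In NOR its signals were 29.4, 18.9 and 91.1, and the log2 difference of DEX minus NOR was 3.76 with a limma adjusted p of 1.0. EL937454 had signals of 594, 517 and 136 in DEX 1, 2 and 3 and 16.7 and 18 in CNT 1 and 2. All DEX animals were above the controls, with DEX 3 the lowest (log2 fold change 4.32, SE 0.80, limma adjusted p = 0.0313). In NOR its signals were 524, 313 and 94.5, so that in both groups the animal of array set B was the lowest, and once the array set was modelled the log2 fold change of DEX against CNT was 2.95. U18941 had signals of 1008, 183 and 131 in DEX 1, 2 and 3 and 26.5 and 24.7 in CNT 1 and 2. DEX 1 was again the highest animal (log2 fold change 3.50, SE 0.74, limma adjusted p = 0.0399). In NOR it was at 42.6, 31.8 and 41.0, and DEX minus NOR was 2.92 with a limma adjusted p of 1.0. The call of U18941 was lost after median centring, after cyclic loess, with trend and robust variances and in the fit of only DEX and CNT arrays, with limma adjusted p-values between 0.0522 and 0.0633. The unadjusted limma p-values of DEX against NOR were 0.00142 for X77603, 0.524 for EL937454 and 0.00226 for U18941. These features were chosen for large increases in DEX over CNT, so the p-values are no independent test of DEX against NOR. AX781434 was the next highest among accessions beginning with neither EL nor EB (log2 fold change 2.03, SE 0.37, limma adjusted p = 0.0292).

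The largest decreases outside the list were found in EL944591, EL935814 and EL938891. EL944591 had signals of 116, 102 and 118 in DEX 1, 2 and 3 and 1224 and 536 in CNT 1 and 2. The DEX animals were nearly equal and the controls were not (log2 fold change -2.86, SE 0.38, limma adjusted p = 0.0124). EL935814 had signals of 98.7, 72.3 and 134 in DEX 1, 2 and 3 and 799 and 505 in CNT 1 and 2 (log2 fold change -2.69, SE 0.31, limma adjusted p = 0.00798). EL938891 had signals of 159, 136 and 202 in DEX 1, 2 and 3 and 1094 and 733 in CNT 1 and 2 (log2 fold change -2.45, SE 0.21, limma adjusted p = 0.00626). The log2 fold changes of NOR against CNT were of similar size, at -2.85 for EL944591, -2.63 for EL935814 and -2.33 for EL938891. Among accessions beginning with neither EL nor EB, the largest decreases were smaller, with log2 fold changes of -1.13 in AY072060, -1.11 in Z11545 and -1.08 in DQ205419. Each of these lost its call after median centring.

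DEX 3 is the only DEX animal on the array set of the controls, and the comparison was therefore repeated with this animal alone. Of the 40 genes of the raised list 39 were higher in DEX 3 than in the mean of the controls, and 17 were so by 2-fold or more, against 1.34% of all features. The median log2 difference was 0.75, compared with 1.38 in DEX 1 and DEX 2. DEX 1 and DEX 2 were both above DEX 3 in 32 of the 40 genes, against 4871 of all 13269 features. DEX 3 was above both in 3 of the genes, against 5652 of all features. FBN1 was the gene that was not higher in DEX 3, at a log2 difference of -0.01. All 9 genes of the lowered list were lower in DEX 3 as well, with 4 at 2-fold or more (against 2.48% of all features) and a median of -0.89, compared with -1.37 in DEX 1 and DEX 2. The log2 difference of DEX 3 from the controls was 2.60 for LPL, 2.08 for FABP5, 3.76 for the mean of C4BPA and 1.90 for CCL2, and it was between 2.28 and 2.30 for the Fc receptor entries. For TAC2 it was -5.85. NOR 3, the NOR animal of the same array set, was above both NOR 1 and NOR 2 in 21 genes of the raised list, between them in 11 and below both in 8, and in the lowered list it was above both in 2 genes and below both in 5. These counts were not taken over all features for NOR 3, so they have no baseline. NOR 3 also differed most from the controls, with an SD of 0.64 for the log2 differences over all features. The part of the animal and of the arrays in the values of DEX 3 was not tested.

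**Figure D4:**
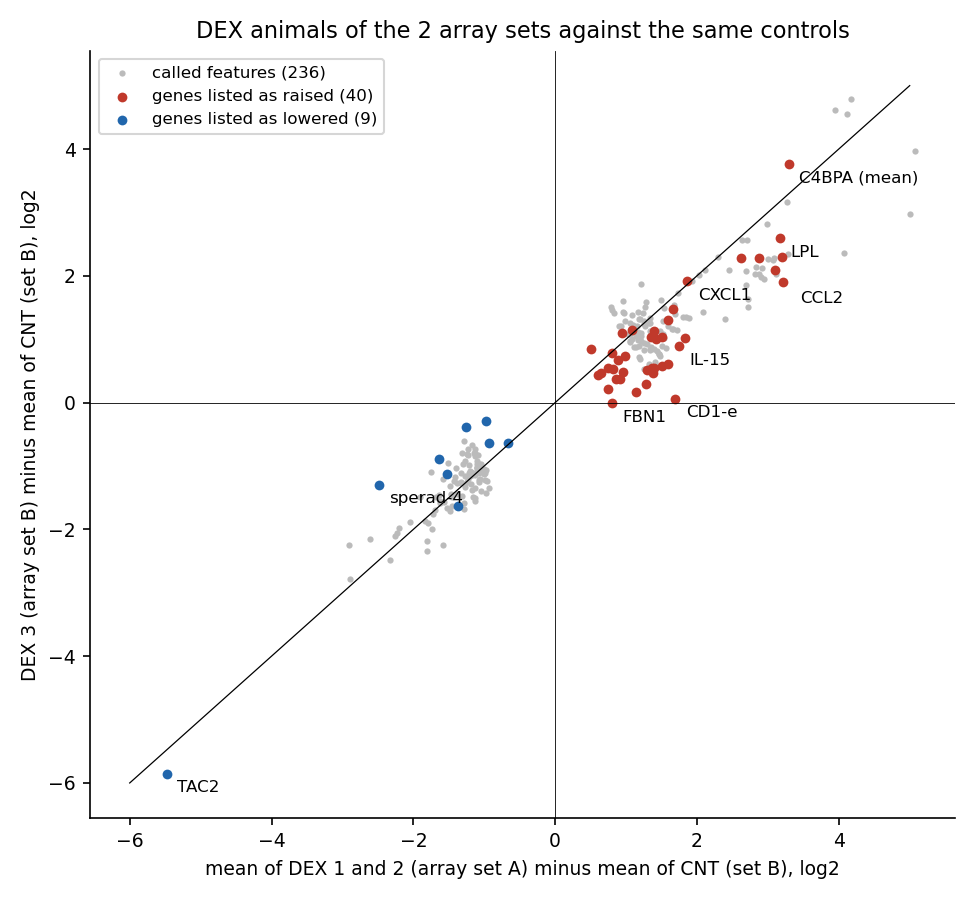
Log2 difference of DEX 3 from the mean of CNT, within array set B (vertical axis), against that of the mean of DEX 1 and DEX 2, which lie in set A (horizontal axis), for called features (grey), the 40 genes of the raised list (red) and the 9 genes of the lowered list (blue); the line marks equality. Both axes use the same controls. Most genes of the raised list lie below the line, with medians of 1.38 on the horizontal and 0.75 on the vertical axis, and FBN1 lies at -0.01 in DEX 3.

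When the model also held the array set, 183 features were called higher (1.38%) and 339 lower (2.55%). Of the 127 and 109 features called without this term, 108 and 93 were called again in the same direction. In the raised list 17 genes were called, 15 of them in both models, and the median log2 fold change was 0.99. TNF-α, IL-15 and CD18 dropped below 2-fold with the term, at 0.87, 0.98 and 0.76, while CYBA and AB049468 of C4BPA rose above it at 1.00 and 1.02. The 5 called genes of the lowered list were called again, sperad-4 with a smaller log2 fold change of -1.44 and TAC2 with a larger one of -6.19. For CD1-e, which was not called in either model, the value was 0.51. When only the arrays of set B were fitted, DEX 3 and NOR 3 were single animals and the spread came from the difference between CNT 1 and CNT 2 alone, with 1 residual degree of freedom, so that the calls carry no measure of the spread among DEX animals. In this fit 47 features were called higher (0.354%) and 33 lower (0.249%). These included 7 genes of the raised list and TAC2 alone in the lowered list.

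The calls were also sensitive to individual animals. The called genes kept the sign of their log2 fold change with each animal left out, but this was fixed beforehand. Their animals did not overlap between DEX and CNT, and NOR animals do not enter that difference. LPL, TBXAS1, 11βHSD and TAC2 were called with each of the 8 animals left out in turn, NOR animals included. So were AB049465 and AB049467 of C4BPA on their own. For 11βHSD this holds for the average of its pair of features, and neither feature alone was called in every such fit. C4BPA (mean) and FABP5 were not called without CNT 1 or without CNT 2, with limma adjusted p-values up to 0.0750. GPIFCGRB1, GPIFCGRB2, GPIFCGRB3, IL15Ra and KCNH2 were not called without DEX 1, CNT 1 or CNT 2, with values up to 0.178. CCL2 and L-asparaginase lost the call without DEX 1, DEX 2, CNT 1 or CNT 2, with values up to 0.159. GPR34, NCX1 and sperad-7 lost it in these cases and without NOR 2, with values up to 0.220, and TNF-α, IL-15, CD18 and sperad-4 also without NOR 1, with values up to 0.257. CXCL1 lost it without NOR 2, DEX 2, CNT 1 or CNT 2, with a value up to 0.180, and CD8-α without NOR 2, DEX 1, DEX 2 or CNT 1, with a value up to 0.157. PRM1 lost it without NOR 2, any DEX animal or either control, with a value up to 0.171. Of the features outside the list, EL938891 was called with each animal left out, EL935814 lost the call without CNT 1 and EL944591 without DEX 1, DEX 2 or CNT 1, with values up to 0.0770. AX781434 lost it without DEX 1, DEX 2 or either control, with a value up to 0.178, and X77603 and EL937454 also without NOR 2, with values up to 0.186. U18941 lost it without NOR 1, NOR 2, DEX 2 or either control, with a value up to 0.219. The log2 fold change of X77603 was 3.86 and that of U18941 was 2.60 without DEX 1, that of EL937454 was 5.0 without DEX 3, and that of EL944591 was -2.26 without CNT 1 and -3.45 without CNT 2. AY072060, Z11545 and DQ205419 were called in at most 2 of the 8 fits that leave out 1 animal each. Over all features the calls without CNT 1 fell to 12 higher and 24 lower and without CNT 2 to 17 and 39. Without DEX 1 they were 48 and 25, without DEX 2 they were 55 and 29, and without NOR 2 they were 82 and 52. A fit without DEX 1 and DEX 2, chosen after the values were seen, left DEX 3 alone in its group. Its spread came from the other groups only, so its calls are not read. The log2 fold changes in this fit were 2.60 for LPL, 3.76 for C4BPA (mean) and -5.85 for TAC2.

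**Figure D5:**
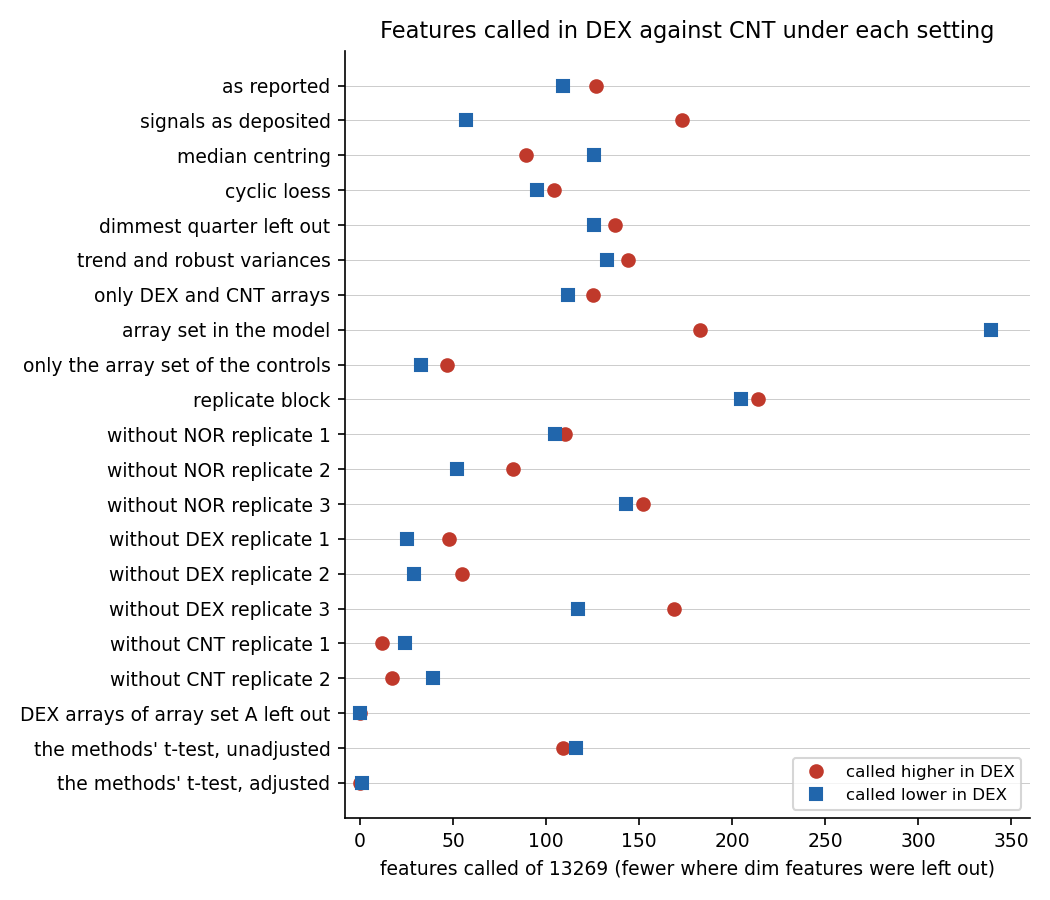
Number of features called higher (red circles) and lower (blue squares) in DEX than in CNT under each setting of the analysis; horizontal axis, features called of 13269. The counts as reported are 127 and 109, they reach 183 and 339 once the array set is modelled, and they are 12 and 24 without CNT 1, 0 and 0 without DEX 1 and DEX 2 together, and 0 and 1 after adjustment of the test named in the methods.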

How the data were processed

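Gene expression was measured in whole cochleae with 1-color NimbleGen arrays, 1 array per animal. According to the methods, arrays were read with an Agilent scanner, and signals of different probes of a gene were combined. The authors deposited linear signal intensities, 1 for each of 13269 features on each of 8 arrays, with 0 missing values. The submitters' processing notes name RMA, which includes background correction and normalization between arrays, and its settings are not given in the sources used here. Medians and quartiles of the log2 signals still differed between arrays by up to 0.39. This difference lay mainly between the array sets, with median deposited signals of 395 to 405 in set A and 308 to 325 in set B. The log2 signals of all 8 arrays were therefore quantile-normalized. Summarized intensities no longer hold the local background of a spot, so a bound for features not above background could not be computed. No sequencing depth applies, and precision is limited by having few arrays.

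A limma model with the groups NOR, DEX and CNT was fitted to all 8 arrays (5 residual and 2.92 prior degrees of freedom), and p-values were adjusted by the Benjamini-Hochberg method over all 13269 features. Genes listed by the study were matched through the group averages of the deposited signals, with 42 entries matching a single feature and 7 the mean of 2 or 4 features, for which log2 values were averaged here (a geometric mean). Their names are those of the study, since the gene table used here matched 0 of the accessions. The genes described are all 49 entries, and in addition, among called features whose animals did not overlap, the 3 largest increases and the 3 largest decreases, taken over all features and again over accessions beginning with neither EL nor EB. Members, gene lists and the comparison were chosen with earlier results of these data known. Marker lists for monocytes, macrophages and T cells consist of listed genes. Simulated data with 100 features changed by each of 1.5 and 2 on the log2 scale gave 86% and 92% of them called, with 5 false calls. The simulated arrays held independent noise and no difference between array sets. These rates therefore do not cover the real arrays, whose sets are spread unequally over the groups. The alternatives were the deposited signals, median centring, cyclic loess, leaving out the dimmest 25% of features, trend and robust variances, only DEX and CNT arrays, array set as a term, only the array set of the controls, a replicate block, the t-test of the methods, and leaving out each animal. Residual correlations of 0.00343 for DEX 1 with CNT 1 and 0.0498 for DEX 2 with CNT 2 showed no pairing by replicate number. With 2 controls the residuals of CNT 1 and CNT 2 mirror each other, so this check could not exclude pairing. R 4.3.3 with limma 3.58.1, Python 3.11.15, numpy 2.4.6, pandas 2.3.3 and matplotlib 3.10.9 were used.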

Additional observations from a re-analysis of the deposited data

How the results depend on the processing

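With 3 animals against 2 and only DEX 3 on the array set of the controls, the number of calls depended on the fit. Named genes whose animals do not overlap cannot change direction when 1 animal is left out. Several other fits leave the log2 fold change as it was. The kept directions counted below are therefore no measure of stability. Of 1171 values for the 59 named genes and features under the alternatives, 903 kept their direction and their side of the threshold, 249 kept the direction and lost the call, 17 gained a call and 2 changed sign, both for FBN1 at -0.013, in the array set of the controls alone and without DEX 1 and DEX 2. The deposited signals gave 173 calls higher and 57 lower, with 6 lower among the accessions beginning with neither EL nor EB, and median centring gave 89 and 126, so that 75.2% and 41.4% of the calls were higher instead of 53.8%. The array set in the model gave 339 lower calls, 22 of them in those accessions. The array set of the controls alone gave 47 higher and 33 lower, with 12 and 2 in those accessions, and 7 genes of the raised and 1 of the lowered list. The fit of only DEX and CNT arrays called 3 genes of the lowered list. The replicate block, whose numbers were not shown to pair DEX with CNT, gave 214 higher and 205 lower, with 44 higher in those accessions and 23 and 6 genes of the lists. It added calls of IL-1β (1.21), COX-2 (1.18), PTGER4 (1.45), CD1-b1 (1.20), CD1-b4 (1.25) and sca1 (-1.15). The residual correlations of DEX with NOR animals of the same number (0.221, 0.360 and 0.526) come from pairs within an array set, and those of other numbers were 0.205 and 0.328 within a set and negative across sets. Leaving out DEX 1 and DEX 2 left DEX 3 alone in its group, with the spread taken from the other groups, so its calls are not read. In the methods' t-test there were 109 higher and 116 lower at its unadjusted threshold with 2-fold, 2732 features at an unadjusted p under 0.05, and 0 higher and 1 lower after Benjamini-Hochberg adjustment, with 0 in the raised list, in the lowered list and in those accessions. Leaving out 1 animal at a time gave 12 to 169 higher and 24 to 143 lower calls, 6 to 43 and 1 to 13 in those accessions, 3 to 20 genes of the raised list and 1 to 5 of the lowered list, where a single remaining control took its spread from the other groups. Without DEX 3 or without NOR 3 the calls were more numerous (169 and 117, 152 and 143), and the cause of these differences was not tested. No group had 4 or more animals, and single animals were not tested as outliers.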
